A study of Mus musculus with 10 samples.

Results

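The integrin and laminin chain genes of the mouse were followed in bladder RNA: the protein coding genes named Itga, Itgb, Lama, Lamb or Lamc in the GENCODE vM21 annotation. They number 37 of the 55536 genes counted, of which 22028 are protein coding, and they comprise 18 integrin α chain, 8 integrin β chain, 5 laminin α chain, 3 laminin β chain and 3 laminin γ chain genes. The libraries are 4 of wild type mice (WT), 3 of OMD knockout mice (OMD-/-) and 3 of PRELP knockout mice (PRELP-/-), all of strain C57BL/6 and each labelled as one bladder sample, so that p-values measure the spread between these samples. OMD (osteomodulin) and PRELP are secreted small leucine-rich proteoglycans of the extracellular matrix, and the study asked what their loss does to gene expression in the bladder. The knockouts were constitutive, with a β-galactosidase reporter knocked in, and neither treatment, age, sex nor pooling of these mice is stated in the sources used here. The sample records describe homogenised bladder tissue, whereas the study speaks of isolated bladder epithelia and gives other numbers of WT and OMD-/- mice, and the records were followed.

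Integrins are membrane receptors made of one α and one β chain, which bind the extracellular matrix or other cells on the outside and the actin or keratin cytoskeleton on the inside. Laminins are trimers of one α, one β and one γ chain, secreted as the sheet-forming protein of basement membranes, and the α chain carries the main site for integrins. In the urothelium, basal cells are anchored by hemidesmosomes, in which the integrin of the Itga6 and Itgb4 chains holds a laminin that contains the Lama3 and Lamb3 chains.

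Total counts ranged from 20391437 to 46269079, the largest being WT replicate 1 and the 9 others lying at 25905707 or below. Omd had 0 counts in every OMD-/- library, but only 0, 1, 8 and 12 in WT, so the targeted gene could hardly be checked there. Prelp had from 46 to 74 counts in PRELP-/- against 4848 to 15890 in WT. Umbrella cell markers summed to 7786 to 9508 CPM (normalised counts scaled to a common library total) in WT, and smooth muscle markers to 328 to 1365 CPM. PRELP-/- replicate 1 stood apart: its integrin and laminin chain genes took 0.152% of its counts, against 0.291% to 0.333% in the other 9 libraries. The 20% of genes with the longest exons stood at a median log2 difference of -0.56 from the WT mean in this library, and the 20% with the shortest at 0.74. The integrin and laminin chain genes are long, with a median exon length of 7015 bases against 4372 bases over 13229 well-counted genes, so PRELP-/- calls are given with and without that library. WT replicates 1 and 2 carried Y chromosome reads (204 and 175 CPM over 4 Y-linked genes) and replicates 3 and 4 had 0 and 0.049 CPM. Those of the OMD-/- libraries were at 17.0, 0.80 and 0.72 CPM, and those of the PRELP-/- libraries at 97.9, 18.07 and 18.01 CPM, levels whose source was not tested.

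The chain genes ran over a wide range of levels in WT bladder. To compare genes of different length, CPM was divided by the summed exon length in kilobases (RPKM). Among the β chains Itgb1, the partner of most matrix-binding α chains, stood highest at 103 ± 16.5 RPKM (SD, n = 4). It was followed by Itgb5 at 45.4 ± 4.39 and Itgb4 at 24.9 ± 3.03 RPKM, and no neighbouring β chains in the order overlapped over the WT libraries down to Itgb8, the lowest, at 0.402 ± 0.0742 RPKM. The leading α chains were the laminin receptor chains Itga3 at 15.4 ± 0.368 and Itga6 at 15.4 ± 2.23 RPKM and the collagen receptor chain Itga11 at 13.1 ± 3.22 RPKM, whose ranges overlapped. Itgav, Itga5 and Itga2 came next, between 4.75 ± 1.19 and 6.4 ± 0.144 RPKM, and the other 12 α chains lay below 2 RPKM. Among the laminins Lama5 led the α chains at 34.8 ± 2.61 RPKM, Lamb2 the β chains at 29.8 ± 1.55 RPKM and Lamc1 the γ chains at 24.8 ± 2.3 RPKM, each with no overlap with the next chain of its family. Lama3 was the next α chain at 7.48 ± 0.447 RPKM, while Lama4 and Lama2 overlapped each other. These orders rest on the summed exon length, which exceeds the longest transcript by unlike amounts. The 2 lengths were 12068 and 6046 bases for Lama4 but 10745 and 10548 for Lama3. They were 6612 and 4867 for Lamb3 but 6082 and 5629 for Lamb2, and 9025 and 4310 for Itga6 but 5710 and 4861 for Itga3. The order of such chains may differ with another length, which was not tested.

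**Figure D1:**
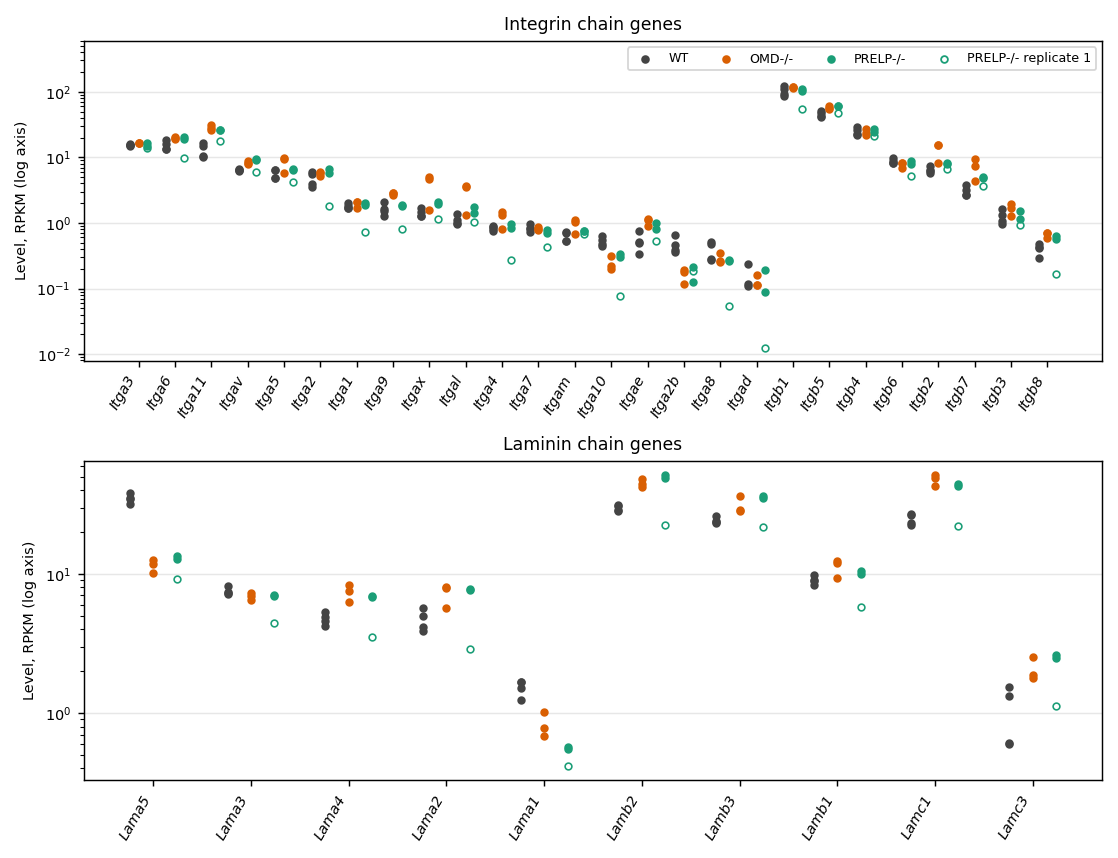
Level of integrin and laminin chain genes in every library (points, RPKM on a log axis), ordered by the WT mean within each family; the open points are PRELP-/- replicate 1, and a library at 0 (Itgad in WT replicate 1) is not drawn. Itgb1 stood highest in WT and Itgad lowest, and Lama5 and Lama1 are the laminin chains whose WT points all lie above both knockouts.

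Of the 37 genes, 23 differed between OMD-/- and WT: 19 rose and 4 fell. Each comparison was fitted over all genes by the quasi-likelihood test of edgeR, with p-values adjusted after Benjamini and Hochberg, and a gene is said to have changed where its adjusted p was below 0.05. Over all 16647 genes tested in that comparison 29.4% passed, 14.3% being higher and 15.1% lower in OMD-/-. Integrins contributed 12 that rose and 2 that fell of 26, laminins 7 that rose and 2 that fell of 11. In bulk tissue, more or fewer cells of a type and more or less RNA per cell cannot be told apart, here and in all that follows. In 22 of the 37 every OMD-/- library lay beyond every WT library, as in 38.9% of all genes tested. The median log2 fold change of the 37 was 0.37, beside -2e-04 over all genes tested. By library, the median difference from WT was 0.20, 0.45 and 0.46 in OMD-/- replicates 1 to 3. In one fit of all 3 groups, which takes in PRELP-/- replicate 1, only 10 of the 37 passed, beside 14.7% of all genes, namely Itga2b, Itga11, Itgae, Itgal, Itgax, Itgb2, Itgb7, Lama1, Lama5 and Lamc1. Without OMD-/- replicate 2 there were 15 (18.2% of all genes), and without replicate 3 there were 14 (17.2%). Itga5, Itga6, Itgae, Itgax, Lama2 and Lamc3 were among those that missed the threshold when either of these libraries was left out, and Itga10, Itgb5 and Itgb8 when one of them was.

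In PRELP-/- 3 of the 37 passed against WT, Lama5, Lama1 and Itga2b, and all 3 were lower. Over all 16581 genes tested 7.29% passed, 1.4% being higher and 5.89% lower. The median log2 fold change of the 37 was 0.0035, beside 0.02 over all genes, and came from median differences of -0.63 in replicate 1 and 0.27 and 0.26 in replicates 2 and 3. Without replicate 1, 14 of the 37 passed, 11 higher and 3 lower, with a median of 0.25. In that comparison 22.2% of all 17120 genes tested passed, 10.7% higher and 11.5% lower. The 3 lower genes were again Lama5, Lama1 and Itga2b, and the 11 higher ones were Itga11, Itgav, Itgax, Itgb5, Itgb7, Lama2, Lama4, Lamb2, Lamb3, Lamc1 and Lamc3. Leaving out this library was chosen after its values were seen. The PRELP-/- libraries left, replicates 2 and 3, were close to each other. The chi-square per gene of their difference was 3.57, against 223 and 220 for each with replicate 1. For PRELP-/- the SEs of this fit thus rest on a close pair, and that of Lamc1 went from 0.25 to 0.09. The comparisons of both knockouts share the WT libraries.

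**Figure D2:**
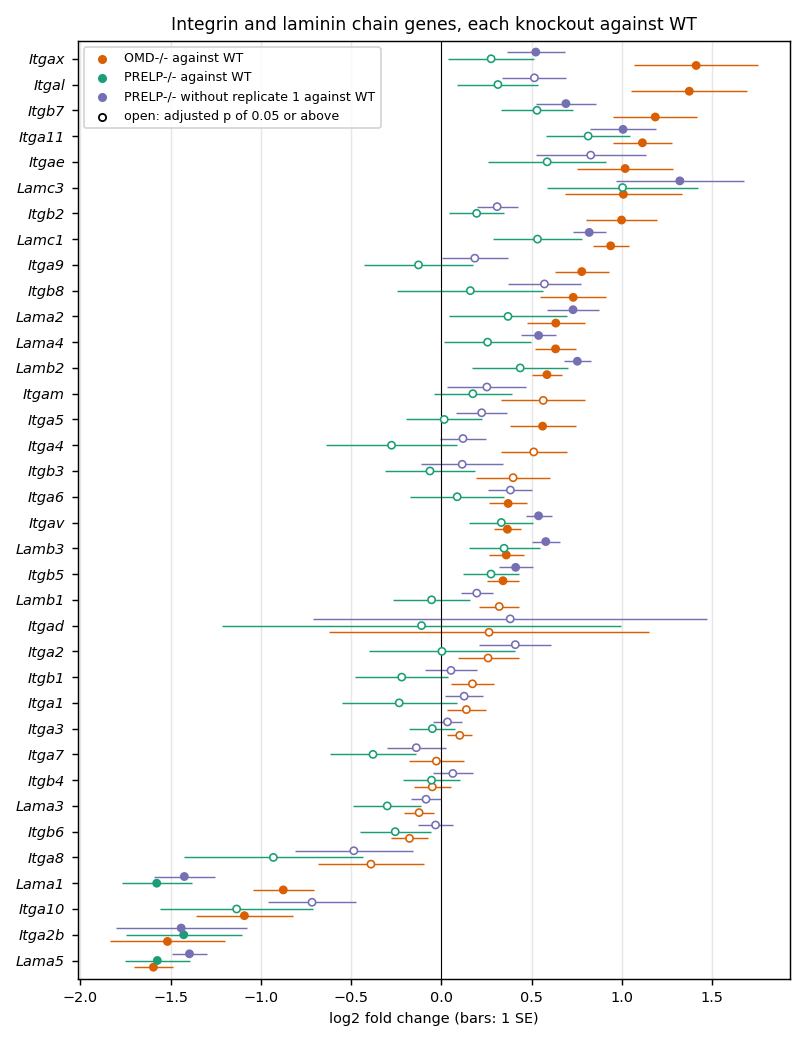
Log2 fold change (horizontal axis, bars of 1 SE) of integrin and laminin chain genes against WT in OMD-/-, in PRELP-/- with all 3 libraries and in PRELP-/- without replicate 1; filled points have an adjusted p below 0.05. Lama5, Itga2b and Lama1 lie to the left and filled in all 3 comparisons, and most filled points of OMD-/- lie to the right.

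Lama5, the α chain of the laminin found in most adult basement membranes, had the largest decrease of the laminin chains in OMD-/-, and it fell in PRELP-/- too. It lies on chromosome 2 (chr2:180176373-180225859, minus strand, GRCm38). Its level was 361, 433, 391 and 401 CPM in WT, 116, 134 and 144 CPM in OMD-/- and 105, 154 and 146 CPM in PRELP-/-. All 6 knockout libraries lay below all 4 WT libraries, and the knockouts overlapped each other. The log2 fold change was -1.60 (± 0.11 SE, adjusted p of 5.51e-06) in OMD-/- and -1.57 (± 0.18 SE, adjusted p of 0.00212) in PRELP-/-, which is 3.02-fold and 2.98-fold lower. Without PRELP-/- replicate 1 it was -1.40 (± 0.10 SE, adjusted p of 8.43e-05). Of its neighbours within 200 kb, Adrm1, Rps21, Osbpl2 and Cables2, the genes nearest to it, did not pass in either knockout. Taf4, Ss18l1 and Mtg2 fell in OMD-/-, by 0.36, 0.60 and 0.61 on the log2 scale.

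Lama1, the α chain of the first laminin laid down in the embryo, also fell in both knockouts. It stood at 14.6, 12.01, 16.2 and 16.1 CPM in WT, 7.59, 9.84 and 6.63 CPM in OMD-/- and 4.03, 5.33 and 5.56 CPM in PRELP-/-. Every PRELP-/- library lay below every OMD-/- library, and these below every WT library. Its log2 fold change was -0.88 (± 0.17 SE, adjusted p of 0.00354) in OMD-/-, -1.58 (± 0.19 SE, adjusted p of 0.00284) in PRELP-/- and -1.42 in PRELP-/- without replicate 1. Lama2 and Lama4, the α chains of muscle and nerve and of blood vessels and mesenchyme, went the other way. For Lama2 the values were 63.6, 67.5, 92.4 and 81.7 CPM in WT, 92.96, 132 and 129.7 CPM in OMD-/- and 46.8, 125 and 126 CPM in PRELP-/-. In OMD-/- all libraries were above WT, replicate 1 by less than 1 CPM, and in PRELP-/- replicates 2 and 3 were above and replicate 1 below every WT library. Lama4 was at 63.99, 59.6, 55.4 and 50.99 CPM in WT, 75.3, 101 and 91.6 CPM in OMD-/- and 42.2, 83.6 and 82.3 CPM in PRELP-/-. Its libraries were ordered in the same way, with OMD-/- above WT and PRELP-/- replicate 1 below. In OMD-/- Lama2 and Lama4 both rose by 0.63 on the log2 scale (adjusted p = 0.0145 and 0.00234). In PRELP-/- neither passed with all libraries (0.37 and 0.26), and both did without replicate 1 (0.73 and 0.54). Lama3, the α chain of the hemidesmosomal laminin, averaged 80.4 ± 4.8 CPM in WT (SD, n = 4), 73.8 ± 4.33 CPM in OMD-/- and 65.98 ± 16.02 CPM in PRELP-/- (SD, n = 3) and did not pass in either comparison.

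The β chain Lamb2, found in vessel, muscle and many adult basement membranes, rose in OMD-/-. Its level was 187, 191, 174 and 173 CPM in WT, 256, 270.1 and 291 CPM in OMD-/- and 136, 311 and 296 CPM in PRELP-/-. In WT its libraries lay close together, and 5 of the 6 knockout libraries were above them, PRELP-/- replicate 1 being the exception. The log2 fold change was 0.59 (± 0.08 SE, adjusted p of 0.000602) in OMD-/-, 0.44 in PRELP-/-, which did not pass, and 0.75 (± 0.08 SE, adjusted p of 0.000527) in PRELP-/- without replicate 1. Lamb3, of the hemidesmosomal laminin, was at 155, 172, 153 and 158 CPM in WT, 240.5, 186 and 189 CPM in OMD-/- and 143, 233 and 240.0 CPM in PRELP-/-. Here OMD-/- replicate 1 was above replicates 2 and 3, and again only PRELP-/- replicate 1 lay below WT. Lamb3 rose by 0.36 on the log2 scale in OMD-/- (adjusted p = 0.0179) and stood at 0.35 in PRELP-/-, without passing, or 0.58 without replicate 1, where it passed. Lamb1, the other β chain, averaged 89.5 ± 6.56 CPM in WT (SD, n = 4), 112 ± 16.5 CPM in OMD-/- and 87.04 ± 25.6 CPM in PRELP-/- (SD, n = 3) and just missed the threshold in OMD-/-, at 0.32 (± 0.11 SE, adjusted p of 0.0504) on the log2 scale.

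The γ chain genes Lamc1 and Lamc3 rose in OMD-/-. Lamc1, the γ chain of most laminins, was at 219.9, 224, 191 and 187 CPM in WT, 352, 405 and 424 CPM in OMD-/- and 181, 355 and 365 CPM in PRELP-/-. All OMD-/- libraries and PRELP-/- replicates 2 and 3 were above WT, and PRELP-/- replicate 1 was below. Its log2 fold change was 0.94 (± 0.10 SE, adjusted p of 0.000117) in OMD-/-, 0.53 in PRELP-/-, which did not pass, and 0.82 (± 0.09 SE, adjusted p of 0.000853) in PRELP-/- without replicate 1. Lamc3, a rare γ chain, was at 8.08, 9.39, 3.72 and 3.63 CPM in WT, 10.9, 11.4 and 15.4 CPM in OMD-/- and 6.82, 15.8 and 15.2 CPM in PRELP-/-. WT replicates 1 and 2 were above WT replicates 3 and 4, the same split as for the Y chromosome reads, and every OMD-/- library was above all 4. Lamc3 rose in OMD-/- with a value of 1.01 (± 0.33 SE, adjusted p of 0.0424) on the log2 scale, lost in every fit that left out an OMD-/- library or WT replicate 3 or 4, and stood at 1.005 in PRELP-/-, where it passed only without replicate 1 (1.32 ± 0.36 SE, adjusted p of 0.031).

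**Figure D3:**
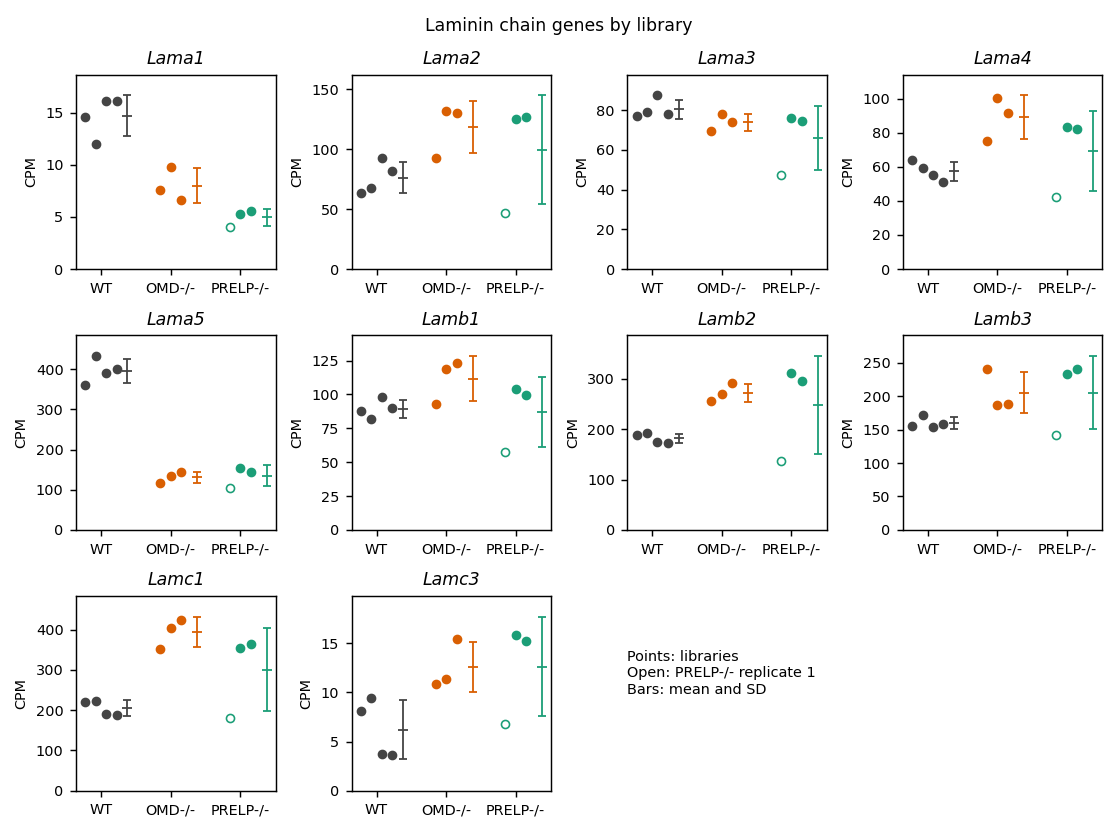
Level of 10 laminin chain genes in each library (points, CPM from 0), with the mean and SD of each group; the open point is PRELP-/- replicate 1. Lama5 and Lama1 lie below WT in all 6 knockout libraries, and for Lama2, Lama4, Lamb2 and Lamc1 the knockout libraries other than PRELP-/- replicate 1 lie above WT.

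Lama5 took a smaller part of the laminin α chain transcripts in both knockouts. Its share of the summed α chain RPKM was 63.9%, 68.2%, 63.1% and 66.0% in WT, 34.6%, 32.3% and 35.3% in OMD-/- and 45.1%, 37.8% and 36.7% in PRELP-/-. The groups of knockouts did not reach WT in any library, PRELP-/- replicate 1 included, although a share within one library does not show which chain changed. The sizes of the shares and of the sums below also rest on the summed exon length used for each chain. The shares of Lama2 and Lama4 averaged 8.76% ± 1.37 and 8.98% ± 1.22 in WT (SD, n = 4), 21.3% ± 1.62 and 21.8% ± 0.912 in OMD-/- and 19.2% ± 4.5 and 18.7% ± 1.38 in PRELP-/- (SD, n = 3). Lama3 went from 14.1% ± 0.786 in WT to 20.4% ± 1.43 and 20.5% ± 1.04 in OMD-/- and PRELP-/-. Summed over all chains of a kind, laminin α chains were at 49.5 to 55.7 RPKM in WT and 29.3 to 36.5 RPKM in OMD-/-, whereas β chains were at 61.3 to 65.8 RPKM in WT and 84.6 to 88.8 RPKM in OMD-/-. Neither pair of ranges overlapped. In PRELP-/- α chains were at 20.4 to 35.7 RPKM, below WT, and β chains at 49.8 to 96.9 RPKM, a range that takes in that of WT.

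**Figure D4:**
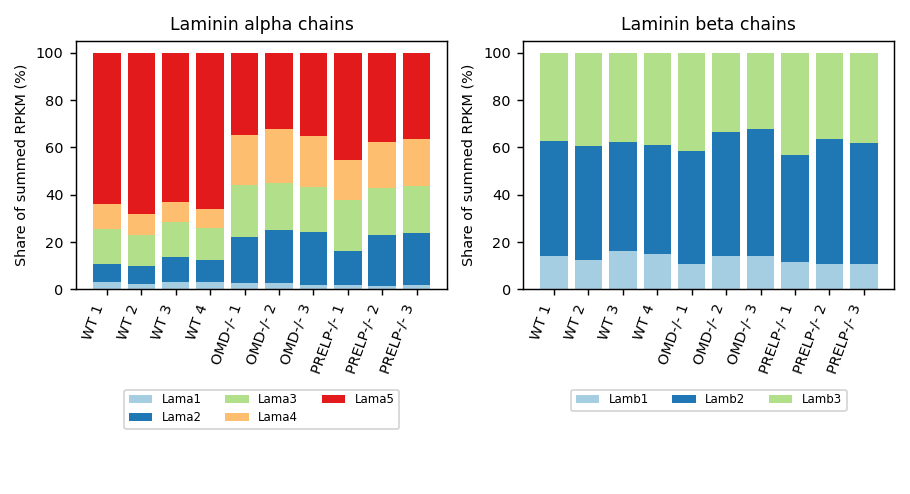
Share of each laminin α and β chain gene in the summed RPKM of its chain family (percent, stacked bars), for every library of WT, OMD-/- and PRELP-/-. The Lama5 bars are between 63.1% and 68.2% in WT and between 32.3% and 45.1% in the knockout libraries.

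Promoter sequence is shown for the genes that changed in OMD-/- and whose RefSeq start is the GENCODE start, so that one window serves both annotations: Lama5 and Itga10, which fell, and Itgav and Itgb5, chains of one receptor that rose together. Each line gives the 250 bases before the start, from RefSeq on GRCm38.p6, on the strand of the gene, and capitals mark the GC box GGGCGG and the E-box CACCTG on either strand, of which none overlap. The windows are chr2:180225860-180226109 on the minus strand for Lama5, and on the plus strand chr3:96645334-96645583 for Itga10, chr2:83724147-83724396 for Itgav and chr16:33829415-33829664 for Itgb5.
Lama5: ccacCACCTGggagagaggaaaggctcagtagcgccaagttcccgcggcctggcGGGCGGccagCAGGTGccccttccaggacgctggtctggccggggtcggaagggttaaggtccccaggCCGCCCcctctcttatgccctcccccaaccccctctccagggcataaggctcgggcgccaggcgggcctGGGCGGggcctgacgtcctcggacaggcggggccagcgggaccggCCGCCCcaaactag
Itga10: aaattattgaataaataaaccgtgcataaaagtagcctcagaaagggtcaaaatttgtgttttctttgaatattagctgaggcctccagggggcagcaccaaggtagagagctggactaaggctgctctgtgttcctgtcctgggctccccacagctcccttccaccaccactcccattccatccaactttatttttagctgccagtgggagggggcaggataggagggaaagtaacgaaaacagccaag
Itgav: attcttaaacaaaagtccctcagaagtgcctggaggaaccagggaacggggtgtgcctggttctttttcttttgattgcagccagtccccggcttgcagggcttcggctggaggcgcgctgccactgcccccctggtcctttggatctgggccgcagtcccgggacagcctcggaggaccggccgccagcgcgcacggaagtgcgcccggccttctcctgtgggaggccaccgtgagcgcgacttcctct
Itgb5: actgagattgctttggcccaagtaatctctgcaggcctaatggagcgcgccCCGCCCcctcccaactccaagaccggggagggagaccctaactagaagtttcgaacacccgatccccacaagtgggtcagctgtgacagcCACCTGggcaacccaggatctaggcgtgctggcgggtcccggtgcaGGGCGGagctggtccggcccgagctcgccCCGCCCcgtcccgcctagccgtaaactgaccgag
The Lama5 window held 4 GC boxes and 2 E-boxes and was 72.4% G and C, and that of Itgb5 held 3 GC boxes and 1 E-box, while those of Itga10 and Itgav held neither. Promoters in the RefSeq table were matched for 23 of the 37 genes, of which 8 had a GC box and 6 an E-box. The nearest RefSeq start was used at any distance. For Itga9, which is among those with an E-box, Lamb3 and Lama2 it lay 105002, 94295 and 2816 bases from the GENCODE start. Over 32817 promoters of the same length, 32.7% had a GC box and 17.2% an E-box, and a match of letters is no evidence of binding. The TATA box TATAAA was in 0 of the 23 windows (12.4% of all), GTCTG in 14 (42.2%) and AGATAA in 1 (9.99%), on either strand.

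Of the 5 chains of laminin receptors 1 rose in OMD-/-. This was Itga6, the α chain of hemidesmosomes, at 164, 146, 123 and 123 CPM in WT, 174, 184 and 181 CPM in OMD-/- and 87.7, 174 and 186 CPM in PRELP-/-. All OMD-/- libraries were above WT and PRELP-/- replicate 1 was below, and WT replicate 1 was the highest of WT. The log2 fold change was 0.37 (± 0.10 SE, adjusted p of 0.0219) in OMD-/- and 0.09 in PRELP-/-, or 0.38 without replicate 1, where it did not pass either (adjusted p = 0.0545). Its partner Itgb4 averaged 175 ± 21.2 CPM in WT (SD, n = 4), 169 ± 16.5 CPM in OMD-/- and 170.5 ± 20.1 CPM in PRELP-/- (SD, n = 3) and had log2 fold changes of -0.05 and -0.05. Itga3, which joins Itgb1 in the epithelial laminin receptor, averaged 88.1 ± 2.1 CPM in WT (SD, n = 4), 94.6 ± 1.27 CPM in OMD-/- and 86.2 ± 8.02 CPM in PRELP-/- (SD, n = 3), and Itga7, the laminin receptor chain of muscle, 6.76 ± 0.735 CPM in WT (SD, n = 4), 6.62 ± 0.378 CPM in OMD-/- and 5.23 ± 1.51 CPM in PRELP-/- (SD, n = 3), and neither passed. Itgb1 itself averaged 421 ± 67.4 CPM in WT (SD, n = 4), 475 ± 4.79 CPM in OMD-/- and 365 ± 121 CPM in PRELP-/- (SD, n = 3) with log2 fold changes of 0.17 (± 0.12 SE, adjusted p of 0.309) in OMD-/- and -0.22 (± 0.26 SE, adjusted p of 0.618) in PRELP-/-.

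The collagen receptor chains divided. Itga11, a collagen receptor chain of fibroblasts, was at 85.4, 77.3, 54.1 and 52.6 CPM in WT, 133, 146 and 159 CPM in OMD-/- and 90.6, 135 and 134 CPM in PRELP-/-. All 6 knockout libraries were above all 4 WT libraries, and WT replicates 1 and 2 were above replicates 3 and 4. The log2 fold change was 1.11 (± 0.16 SE, adjusted p of 0.00105) in OMD-/- and 0.81 (± 0.23 SE, adjusted p of 0.0706) in PRELP-/-, which did not pass until replicate 1 was left out (1.01 ± 0.19 SE, adjusted p of 0.00719). DESeq2 also called Itga11 in PRELP-/- with all libraries. Itga10, a collagen receptor chain of cartilage (chr3:96645584-96664519, plus strand, GRCm38), was near the lower end of the range at 2.83, 3.28, 2.44 and 2.35 CPM in WT, 1.04, 1.15 and 1.65 CPM in OMD-/- and 0.398, 1.72 and 1.56 CPM in PRELP-/-. The OMD-/- and PRELP-/- libraries were all below WT, PRELP-/- replicate 1 having 7 counts. Its log2 fold change was -1.09 (± 0.27 SE, adjusted p of 0.0115) in OMD-/-, and those of -1.13 in PRELP-/- and -0.72 without replicate 1 did not pass (adjusted p = 0.135 and 0.0656). Itga1 averaged 33.3 ± 2.92 CPM in WT (SD, n = 4), 36.7 ± 4.13 CPM in OMD-/- and 28.6 ± 13.3 CPM in PRELP-/- (SD, n = 3) and Itga2 33.9 ± 8.49 CPM in WT (SD, n = 4), 40.6 ± 3.14 CPM in OMD-/- and 34.2 ± 18.5 CPM in PRELP-/- (SD, n = 3), and neither collagen receptor chain passed.

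Among the chains that bind fibronectin, vitronectin and latent TGF-β, Itgav and its partner Itgb5 rose in OMD-/-. Itgav, the common α chain of these receptors, was at 67.2, 69.8, 67.8 and 70.4 CPM in WT, 84.4, 94.03 and 87.6 CPM in OMD-/- and 64.3, 97.3 and 101 CPM in PRELP-/-. WT libraries lay within a few CPM of each other and only PRELP-/- replicate 1 was below them. On the log2 scale Itgav stood at 0.37 (± 0.08 SE, adjusted p of 0.00515) in OMD-/-, 0.33 in PRELP-/- and 0.54 (± 0.07 SE, adjusted p of 0.00191) without replicate 1. Itgb5, a vitronectin receptor chain, was at 169.9, 179, 146 and 151 CPM in WT, 218, 194 and 202 CPM in OMD-/- and 167, 213 and 213 CPM in PRELP-/-. OMD-/- libraries and PRELP-/- replicates 2 and 3 were above WT, and PRELP-/- replicate 1 was within the WT range. Its log2 fold change was 0.34 (± 0.09 SE, adjusted p of 0.0146) in OMD-/-, 0.28 in PRELP-/- and 0.41 (± 0.09 SE, adjusted p of 0.0166) without replicate 1. Itgb8, a partner of Itgav that activates latent TGF-β, was at 4.71, 5.2, 3.28 and 4.61 CPM in WT, 7.87, 6.62 and 7.72 CPM in OMD-/- and 1.82, 6.93 and 6.2 CPM in PRELP-/-. It rose in OMD-/-, where no library overlapped WT (0.73 ± 0.18 SE, adjusted p of 0.0129), and in PRELP-/- it did not pass (0.16, or 0.57 without replicate 1).

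Itga5, the α chain of the fibronectin receptor, was at 31.7, 32.02, 24.1 and 23.9 CPM in WT, 28.9, 46.8 and 47.8 CPM in OMD-/- and 20.9, 31.7 and 33.1 CPM in PRELP-/-. OMD-/- replicates 2 and 3 were above WT while replicate 1 lay within it, and the log2 fold change of 0.56 (± 0.18 SE, adjusted p of 0.043) was lost in every fit that left out OMD-/- replicate 2 or 3 or WT replicate 3 or 4. Itga9, a receptor chain for tenascin and of lymphatic valves, was at 15.9, 12.5, 11.7 and 9.66 CPM in WT, 22.2, 20.4 and 21.7 CPM in OMD-/- and 6.31, 13.8 and 14.4 CPM in PRELP-/-. The OMD-/- libraries were all above WT (0.78 ± 0.15 SE, adjusted p of 0.00337), and in PRELP-/- it did not pass with replicate 1 (-0.13) or without it (0.19). Of the other partners of Itgav, Itgb6, an epithelial chain, averaged 61.9 ± 4.83 CPM in WT (SD, n = 4), 54.7 ± 5.61 CPM in OMD-/- and 52.3 ± 13.7 CPM in PRELP-/- (SD, n = 3), and Itgb3 7.34 ± 1.72 CPM in WT (SD, n = 4), 9.71 ± 2.02 CPM in OMD-/- and 7.12 ± 1.79 CPM in PRELP-/- (SD, n = 3). Itga8, a nephronectin receptor chain of mesenchyme, averaged 2.83 ± 0.903 CPM in WT (SD, n = 4), 2.15 ± 0.398 CPM in OMD-/- and 1.46 ± 0.921 CPM in PRELP-/- (SD, n = 3). None of these passed in either knockout.

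Itga2b, the α chain of the fibrinogen receptor of platelets (chr11:102453297-102470122, minus strand, GRCm38), fell in both knockouts from a low level. It was at 3.55, 1.97, 2.53 and 2.08 CPM in WT, 0.99, 0.636 and 1.05 CPM in OMD-/- and 1.02, 1.16 and 0.689 CPM in PRELP-/-. The 6 knockout libraries, with 15 to 29 counts each, were all below WT, which had 45 to 178. Its log2 fold change was -1.52 (± 0.32 SE, adjusted p of 0.00543) in OMD-/- and -1.43 (± 0.32 SE, adjusted p of 0.0332) in PRELP-/-. In PRELP-/- the call was lost in every fit that left out a library other than PRELP-/- replicate 1, and without that replicate the value was -1.44 (± 0.36 SE, adjusted p of 0.0235). The 7 platelet and megakaryocyte markers summed to 3.89 to 7.36 CPM in WT, 7.87 to 8.48 in OMD-/- and 6.41 to 16.9 in PRELP-/-. Most of this sum came from Pf4 in every library. None of the 2 or 3 markers that could be tested passed. Ppbp, Gp9, Gp1ba, Gp1bb, Gp6 and Treml1 were each at 0 in at least 1 library.

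Among integrins, the leukocyte chains Itgax and Itgal had the largest log2 increases in OMD-/-, and these came from 2 of 3 libraries. Itgal, the α chain by which lymphocytes bind ICAM, was at 7.16, 8.999, 6.51 and 6.42 CPM in WT, 8.53, 23.4 and 24.4 CPM in OMD-/- and 6.76, 11.4 and 9.24 CPM in PRELP-/-. OMD-/- replicate 1 lay within the WT range, and replicates 2 and 3 were far above it. The same was true of Itgax, of dendritic cells and macrophages, at 6.2, 6.12, 6.96 and 8.06 CPM in WT, 7.59, 23.8 and 22.9 CPM in OMD-/- and 5.51, 9.46 and 10.02 CPM in PRELP-/-. Log2 fold changes were 1.37 (± 0.32 SE, adjusted p of 0.012) for Itgal and 1.41 (± 0.34 SE, adjusted p of 0.0145) for Itgax. In PRELP-/- these were 0.31 and 0.28, and without replicate 1 0.52 and 0.52, of which only that of Itgax passed (adjusted p = 0.0489).

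Itgb2, the β chain shared by Itgal, Itgam, Itgax and Itgad, was at 22.6, 19.6, 17.9 and 18.9 CPM in WT, 25.1, 46.5 and 46.8 CPM in OMD-/- and 20.1, 24.01 and 24.6 CPM in PRELP-/-. OMD-/- replicate 1 was above WT by little and the others by far (0.999 ± 0.20 SE, adjusted p of 0.00496). Itgb7, the β chain of gut-homing and intraepithelial lymphocytes, was at 8.94, 10.5, 7.4 and 7.27 CPM in WT, 12.2, 25.8 and 20.1 CPM in OMD-/- and 10.1, 14.03 and 13.3 CPM in PRELP-/-. Its log2 fold change was 1.19 (± 0.23 SE, adjusted p of 0.00441) in OMD-/- and 0.53 in PRELP-/-, and 0.69 (± 0.17 SE, adjusted p of 0.0201) in PRELP-/- without replicate 1. Itgae, which joins Itgb7 to bind E-cadherin on epithelial cells, was at 1.54, 3.45, 2.35 and 2.26 CPM in WT, 4.1, 5.005 and 5.3 CPM in OMD-/- and 2.44, 4.57 and 3.77 CPM in PRELP-/-. All OMD-/- libraries were above WT here (1.02 ± 0.27 SE, adjusted p of 0.0157), and in PRELP-/- it did not pass with or without replicate 1.

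Itgam, of myeloid cells, averaged 3.15 ± 0.567 CPM in WT (SD, n = 4), 4.67 ± 1.13 CPM in OMD-/- and 3.61 ± 0.228 CPM in PRELP-/- (SD, n = 3), and Itga4, the α chain by which leukocytes bind VCAM, 11.7 ± 0.864 CPM in WT (SD, n = 4), 16.6 ± 4.66 CPM in OMD-/- and 9.69 ± 5.12 CPM in PRELP-/- (SD, n = 3). Both were higher in OMD-/- replicates 2 and 3 than in any WT library, and neither passed (adjusted p = 0.0899 and 0.056 in OMD-/-). Itgad, of macrophages, had from 0 to 24 counts in a library and did not pass. Leukocyte markers too were highest in OMD-/- replicates 2 and 3. Their sum was 156 to 162 CPM in WT, 219, 445 and 453 CPM in OMD-/- replicates 1 to 3, and 201, 241 and 235 CPM in PRELP-/-. In replicate 1 of each knockout the sum was above every WT library, while Itgal and Itgax were not. Of the 10 markers 9 rose in OMD-/-, and in PRELP-/- 1 rose, or 4 without replicate 1, beside 14.3%, 1.4% and 10.7% of all genes. The B cell marker Ms4a1 was at 0.080 to 0.49 CPM in WT and at 1.32, 12.1 and 12.1 CPM in OMD-/-.

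**Figure D5:**
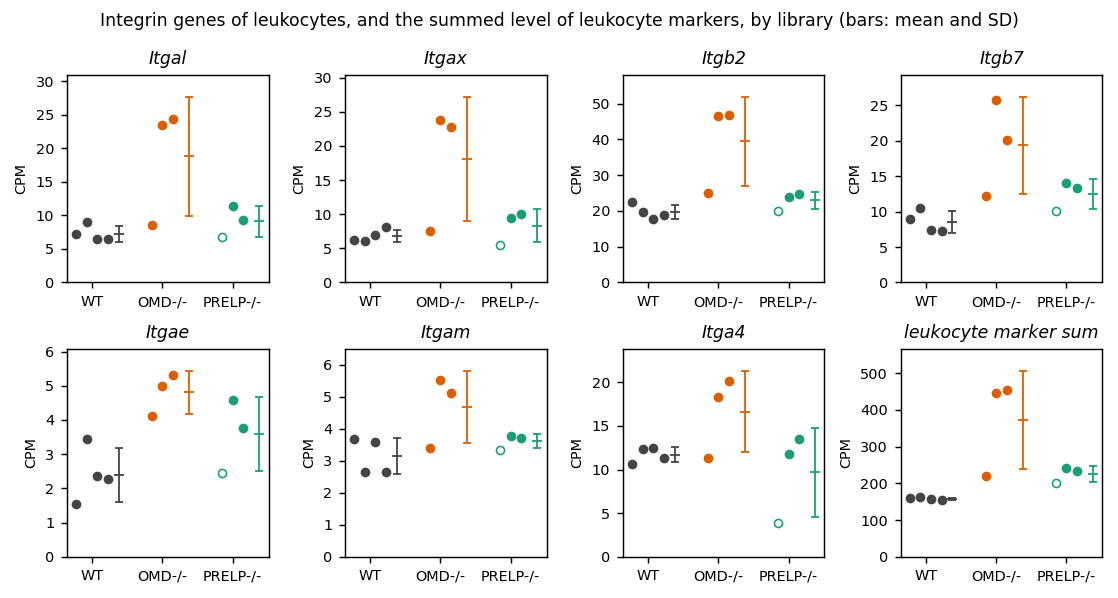
Level of 7 integrin chain genes of leukocytes and the summed level of 10 leukocyte markers in each library (points, CPM from 0), with the mean and SD of each group; the open point is PRELP-/- replicate 1. OMD-/- replicates 2 and 3 lie together above the other libraries for Itgal, Itgax, Itgb2, Itgb7, Itga4 and Itgam and for the marker sum, and OMD-/- replicate 1 lies near WT for most of them.

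Set directly against each other, PRELP-/- and OMD-/- differed in 0 of the 37 genes by edgeR's test, and in 0.00633% of the 15805 genes tested (1 gene). With same-numbered libraries as blocks 0 of the 37 and 0.272% of all genes (43) passed. At an unadjusted p below 0.05 there were 5 of the 37 and 713 of all genes, DESeq2 called 0 of the 37 and 0.426% of all genes, and limma-voom with quality weights 6 of the 37 and 6.4% of all genes. The 5 were Lama1, Itgb2, Itga9, Itgal and Itgax, with log2 differences (PRELP-/- less OMD-/-) of -0.69, -0.79, -0.89, -1.04 and -1.12, each with an adjusted p of 0.69. For Lama5 the difference was 0.03 with an SE of 0.19. The median of the 37 was -0.35, and by library it was -0.94 in PRELP-/- replicate 1 and -0.08 and -0.07 in replicates 2 and 3.

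The other genes around integrins and laminins were taken from 5 lists. Beside the counts below, 14.3% of all genes tested were higher and 15.1% lower in OMD-/-, and 1.4% and 5.89% in PRELP-/-. Without PRELP-/- replicate 1 these shares were 10.7% and 11.5%. Of 20 further basement membrane genes, 8 rose and 1 fell in OMD-/-, and in PRELP-/- 0 passed, or 9 higher and 1 lower without replicate 1. Of the 6 collagen IV chains Col4a1 and Col4a2 rose and the other 4 did not pass. Col4a1 averaged 287 ± 31.4 CPM in WT (SD, n = 4), 722 ± 60.8 CPM in OMD-/- and 454 ± 174 CPM in PRELP-/- (SD, n = 3), and its log2 fold change was 1.33 (± 0.10 SE, adjusted p of 1.81e-05) in OMD-/-, and Col4a2 rose by 1.22. The laminin linker Nid1 rose by 0.88, perlecan (Hspg2) by 0.71 and Col18a1 by 0.48 on the log2 scale, while Tinagl1 fell by 0.46. The summed level of the list was 1591 to 1811 CPM in WT, 2521 to 2800 in OMD-/- and 1367, 2525 and 2446 in PRELP-/-.

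Of 23 other integrin ligands 19 were tested in OMD-/-, where 13 rose and 0 fell, and in PRELP-/- 2 rose of 18 tested, or 8 of 19 without replicate 1. Tgfb3, whose latent form binds Itgav receptors, averaged 17.4 ± 1.51 CPM in WT (SD, n = 4), 30.8 ± 1.99 CPM in OMD-/- and 28.5 ± 2.12 CPM in PRELP-/- (SD, n = 3) and passed in both knockouts, with log2 fold changes of 0.83 (± 0.10 SE, adjusted p of 0.000261) and 0.70 (± 0.14 SE, adjusted p of 0.0193). Mfge8, a ligand of Itgav receptors, also passed in both, at 0.77 and 0.56. Fibronectin (Fn1) rose by 1.04 in OMD-/- and was at 0.84 in PRELP-/-, without passing (adjusted p = 0.0906), or 1.14 without replicate 1, where it passed. In OMD-/- Thbs2 rose by 0.75 and Ltbp1 by 0.72, and Spp1, at 0.347 ± 0.074 CPM in WT (SD, n = 4), 3.34 ± 1.83 CPM in OMD-/- and 0.441 ± 0.236 CPM in PRELP-/- (SD, n = 3), by 3.23.

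Partners of these receptors at the membrane and inside the cell were followed as well. Their counts stand beside 29.4% of all genes passing in OMD-/-, 7.29% in PRELP-/- and 22.2% in PRELP-/- without replicate 1, and were not tested as sets. Of the 4 hemidesmosome partners, Dst, the plakin that ties Itgb4 to keratin, fell in OMD-/- (-0.76 ± 0.12 SE, adjusted p of 0.0014) from 628 ± 49.9 to 372 ± 60.9 CPM, and it passed in PRELP-/- only without replicate 1 (-0.82 ± 0.09 SE, adjusted p of 0.000789). Plec, Col17a1 and Cd151 did not pass in any of the comparisons. Of 12 tested genes of the dystroglycan complex and other laminin receptors 4 rose in OMD-/-, among them Dag1 by 0.65, Sspn by 0.68 and Sgcb by 0.42, and 1 of 12 passed in PRELP-/-. Of 33 tested adaptors that link integrins to actin 11 rose and 1 fell in OMD-/-. In PRELP-/- 0 rose and 1 fell, or 10 and 1 without replicate 1. The one that fell in both was Fermt2, a kindlin that activates integrins, at -0.37 and -0.67. Parva, Tln1 and Tln2 rose in OMD-/- by 0.77, 0.54 and 0.67, and Tgfb1i1 and Rsu1 by 0.51 and 0.41.

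The summed level of fibroblast markers, most of it from the collagens Col1a1, Col1a2 and Col3a1, was 8159 to 9320 CPM in WT, 17470 to 21300 in OMD-/- and 9865, 19370 and 18960 in PRELP-/-. Of 7 fibroblast markers 4 rose in OMD-/-, and 2 in PRELP-/-, Col1a1 and Col1a2, or 4 without replicate 1, while Dcn, Lum and Dpt did not pass, Dpt standing at -0.66 in OMD-/- and -1.42 in PRELP-/-. Endothelial markers summed to 412, 405, 207 and 189 CPM in WT replicates 1 to 4. This divides WT as Itga11, Lamc3, Itga5, Itga6, Itgb5, Lamb2 and Lamc1 do, among other chain genes. In OMD-/- these markers summed to 434 to 508 CPM, and 1 of 7, Egfl7, passed and was lower. Smooth muscle markers and Lama2 divided WT in the opposite way. The markers were at 346 and 328 CPM in replicates 1 and 2 and 1365 and 1205 CPM in replicates 3 and 4, and none of the 8 passed in either knockout. Umbrella cell markers summed to 9910 to 13490 CPM in OMD-/- and 11300 to 19960 CPM in PRELP-/-, with 2 and 1 of 6 higher by the test (3 in PRELP-/- without replicate 1), and basal urothelial markers to 3215 to 4403 and 3641 to 4879 CPM, against 2497 to 3180 CPM in WT, with Krt15 higher and Shh lower of 4 tested in OMD-/- and 0 of 5 passing in PRELP-/-, or 2 higher without replicate 1. Schwann cell markers, of which Mal makes up most, summed to 1075 to 1154 CPM in WT, 962 to 1330 CPM in OMD-/- and 1080 to 2819 CPM in PRELP-/-, and 1 of 6 passed in each knockout, in OMD-/- Sox10, which was higher. Beside these marker counts, 29.4% of all genes passed in OMD-/-, 7.29% in PRELP-/- and 22.2% in PRELP-/- without replicate 1. The part of these cell types in the changes of Lama2, Lama4, Lamb2, Lamc1, Itga11 and Lama5 was not tested.

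Across the 37 genes the log2 fold change against WT bore little relation to GC content (Pearson's r of -0.12 in OMD-/- and -0.02 in PRELP-/-). With exon length r was -0.17 in both, and Spearman's rho was -0.25 in OMD-/- and -0.27 in PRELP-/-. For PRELP-/- against OMD-/- r was 0.25 with GC content (Spearman's rho of 0.37) and 0.05 with exon length. These values are a description over genes of the same libraries. Exons of other genes overlap those of some members, and on the same strand they cover 68.7% of the exon bases of Itgam and 33.5% of those of Itga10. The overlapping genes had a mean of 0.715 CPM or less. Whether reads shared by 2 genes were dropped is not given in the sources used here, so these means cannot show whether members lost reads.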

How the data were processed

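Bladder mRNA was captured on oligo-dT and made into stranded libraries whose adaptors carry molecular identifiers. The authors deposited one file of whole-number read counts per gene for each library, not normalized; its header names HISAT2, while the submitters' processing notes name bcl2fastq, STAR 2.5.2b, featureCounts and DESeq2 with builds GRCm38 and hg38. Strand setting, annotation and use of the identifiers are not given in the sources used here. Tables of the authors' own DESeq2 comparisons were deposited too, and their baseMean (a signal), log2 fold changes, scores and p-values were not used. The 55536 identifiers matched GENCODE vM21 (GRCm38).

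Computations used R 4.3.3 with edgeR 4.0.16 (TMM, filterByExpr, robust quasi-likelihood test, two-sided, Benjamini-Hochberg adjustment over all genes tested, threshold 0.05), fitted on the 2 groups compared. Printed CPM used TMM over all 10 libraries. All 37 integrin and laminin chain genes passed the filter on low counts. No 2 libraries agreed within sampling noise, and some pairs were much closer than others. The chi-square per gene was 3.1 for OMD-/- replicates 2 and 3, against 26.8 and 24.5 for each with replicate 1. In PRELP-/- these values were 3.6, against 223 and 220. In WT it was 11.6 for replicates 1 and 2 and 8.3 for 3 and 4, against 28.9 to 49.3 across. Whether close pairs come from separate mice is not stated in the sources used here, and p-values treat them as separate. The members and the gene lists were chosen with earlier results of these data known, and members are named with all libraries where they passed against WT. A few members and listed genes are counted in totals but not reported here. Up to 6 genes per list were eligible to be named, those passing in both knockouts first and then by smallest adjusted p in OMD-/-. Same-numbered PRELP-/- and OMD-/- libraries deviated together (r of 0.303, 0.181 and 0.148), which comes from the data alone, and numbers did not pair the other groups. The steps were tested on simulated counts, drawn independently for each library with the same dispersion for all genes. Those counts held neither a library set apart nor close pairs, so they do not show how the steps behave with these. Alternatives were DESeq2 1.42.0, RLE size factors, no filter, limma-voom (limma 3.58.1) with quality weights, all 3 groups in one fit, a replicate block, Y reads as a covariate and leaving out each library.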

Additional observations from a re-analysis of the deposited data

Results flagged for a closer look

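Total counts in WT were set apart by replicate 1, with 46269079 counts against 20391437 to 21342576 in the others. Only WT has enough libraries for this comparison of the farthest library with its neighbours, made for the chain genes reported here and for library totals, and chance sets apart about 1 group in 20.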

How the results depend on the processing

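Of 23 genes that passed in OMD-/- against WT (beside 29.4% of all genes), 10 passed in one fit of all 3 groups (14.7% of all genes). Leaving out each library in turn gave 14 to 24. The lowest was without OMD-/- replicate 3 (17.2% of all genes) and the next, 15, without replicate 2 (18.2%). The highest was without OMD-/- replicate 1 (25.5%). Against 3 in PRELP-/-, limma-voom with quality weights, which gives less weight to a library far from its group, called 22 (and 42.1% of all genes, against 7.29%). Leaving out each library there gave 2 to 14 (2.77% to 22.2% of all genes), the highest without PRELP-/- replicate 1. With the replicate block 17 passed in OMD-/- (21.1% of all genes) and 1 in PRELP-/- (0.694%). In both comparisons libraries of the same number share only that number (r of their deviations 0.041, -0.044 and 0.024 in OMD-/- and -0.059, 0.14 and -0.10 in PRELP-/-). With the block 0 passed between the knockouts, where it changed no call among the 37 (43 of all genes passed, against 1). Between the knockouts limma-voom called 6 (6.4% of all genes). There the log2 difference of Lamb3 was -0.0008 by edgeR and passed with the opposite sign, 0.29, with limma-voom. The cause of these differences was not tested. DESeq2, RLE size factors, no filter on low counts and Y reads as a covariate gave 25, 24, 20 and 23 genes in OMD-/-, 4, 3, 4 and 2 in PRELP-/- and 0 between the knockouts. The shares of all genes were 26.8%, 29.3%, 16.1% and 34.8% in OMD-/-, and 12.6%, 7.33%, 3.76% and 3.23% in PRELP-/-. Between the knockouts they were 0.426%, 0.00633%, 0.0173% and 0.0127%. The call of Itga2b in PRELP-/- was lost under the block, under the Y covariate and without any one library other than PRELP-/- replicate 1, and that of Lama1 under the block, while that of Lama5 held in both knockouts under every alternative. The medians of the 37 genes stayed between 0.32 and 0.48 in OMD-/-, between -0.13 and 0.30 in PRELP-/- and between -0.47 and -0.10 between the knockouts. At these depths 3 counts are 0.065 to 0.147 CPM, and only Itgad had 3 counts or fewer in any library. Counts were also low for Itga8 and Itga10, with 7 each in PRELP-/- replicate 1, and for Itga2b, with 15 to 29 in the knockout libraries.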
